A study of Mus musculus with 18 samples.

Results

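The transcripts described here are the noncoding RNAs that were counted in every one of 18 mouse 2-cell embryos. RefSeq marks a transcript with no annotated protein by the prefix NR_ and a protein-coding one by NM_. Members were the NR_ rows with at least 10 counts in all 18 embryos, with 1 row left out by the rule, and rows with the same count in every embryo were merged. The rule kept 103 rows, which gave 101 members of the 1763 NR_ rows. It thus took 5.85% of the NR_ rows, against 19.996% of the 25060 NM_ rows under the same minimum, and since these counts chose the members those shares are a description.

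The study asked whether an altered histone content of sperm goes along with altered gene expression in the offspring embryo. Each library was the amplified RNA of a single embryo, from a natural mating of a 129SVE female that carried no mutation. There were 9 embryos of 3 wild-type fathers, called WT here, and 9 of 3 Parg(110)-/- fathers, called Parg(110), with 3 embryos per father and embryos named father-embryo (7-2 is embryo 2 of father 7). Parg(110)-/- males lack the 110 kDa form of poly(ADP-ribose) glycohydrolase, which takes poly(ADP-ribose) chains off proteins, and their embryos inherit 1 disrupted allele and 1 intact maternal allele. The genotype is therefore the father's, and the 3 embryos of a father are not independent of each other.

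The WT libraries held 2852858 to 13355161 counts and the Parg(110) libraries 3560501 to 12497060. Values are counts scaled to a library total of 1000000 (CPM), so that 1 count was worth 0.0749 to 0.351 CPM. The Parg row itself ranged from 32.0 to 138 CPM in WT and from 25.2 to 77.3 CPM in Parg(110), and its log2 difference was -0.67 ± 0.34 (SE, edgeR adjusted p = 0.872). Genes that mark the oocyte and early embryo were counted in every library. Gdf9 ranged from 105 to 228 CPM, Dppa3 from 175 to 415 CPM and Nlrp5 from 128 to 1486 CPM, while Zp3 ranged from 2.50 to 53.1 CPM and Zar1 from 0.281 to 24.1 CPM. Zscan4d, a gene of the mouse 2-cell stage, was low, with a median of 2.11 CPM and no count in 2 embryos. Of the markers of blood, liver and connective tissue, Alb was at 0 in all 18 embryos, and Ptprc, Col1a1, Col3a1 and Vim were each at 0 in 14 to 16 of them. The sperm transcripts Prm1 and Tnp1 were at 0 in all 18 embryos, and Prm2 in 17, with 0.174 CPM in embryo 8-2.

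A 2-cell embryo still carries RNA that the oocyte stored, while its own genome is beginning to be transcribed. Long noncoding RNAs (lncRNAs) have no translated frame and act as RNA, for example as scaffolds in the nucleus or as regulators in cis. Small nucleolar RNAs (snoRNAs) guide the modification of ribosomal RNA and are cut from the introns of host genes. Pseudogenes are copies of coding genes, and many arose by reverse transcription of a messenger RNA. Coding genes also give noncoding transcripts, often splice forms with a premature stop codon, which nonsense-mediated decay removes.

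Names came from the RefSeq gene table, which matched 79 of the 101 members. The members comprised 40 noncoding transcripts of protein-coding genes, 22 pseudogenes, 14 lncRNAs, the snoRNA host genes Snhg1 and Snhg3, the snoRNA Snora47, and 22 transcripts for which no name was found. Together they took 0.855% to 1.11% of the counts of a WT embryo (median 0.974%) and 0.977% to 1.17% of those of a Parg(110) embryo (median 1.08%). The ranges of the genotypes overlapped. By father the mean share was 0.965%, 1.06% and 0.941% for WT fathers 1, 2 and 3, and 1.06%, 1.12% and 1.102% for Parg(110)-/- fathers 6, 7 and 8. The 14 lncRNAs held 34.6% of the member counts and the 40 noncoding transcripts of coding genes 34.0%, while the 22 pseudogenes held 7.94%. Part of these counts, among them those of Gm44505, nearly equal the counts of a coding row, as set out below. The mean over embryos ran from 8.06 CPM (Tug1) to 947 CPM (Gm44505) for the lncRNAs, with a median of 54.0 CPM. It ran from 9.04 to 162 CPM for the pseudogenes (median 26.8), from 11.02 to 751 CPM for the noncoding transcripts of coding genes (median 45.2) and from 7.38 to 459 CPM for the transcripts without a name (median 50.3).

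**Figure D1:**
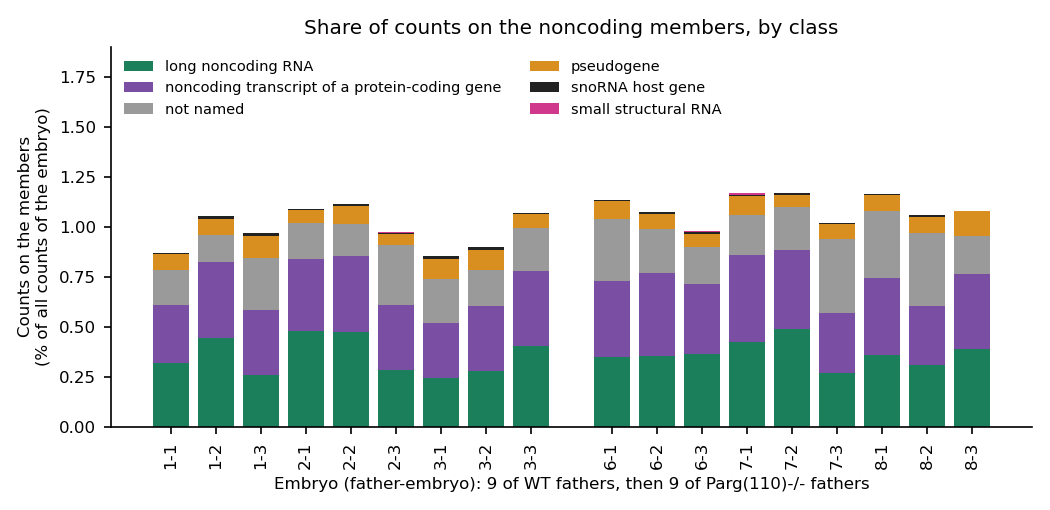
Counts on the members as a percentage of all counts of each embryo, stacked by class of transcript, for the 9 embryos of WT fathers (left) and the 9 of Parg(110)-/- fathers (right). Totals run from 0.855% in embryo 3-1 to 1.17% in embryo 7-2, and lncRNAs and noncoding transcripts of coding genes make up most of every bar. Part of the counts in these classes nearly equal those of a coding row.

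A row can carry a count because its own RNA was present or because a read also fits another transcript. Each member was therefore set against all NM_ rows counted in every embryo, to find the NM_ row whose counts stayed closest to it. For 28 of the 101 members (27.7%) an NM_ row held counts within 10% of the member's in all 18 embryos, and for 53 one stayed within 1.5-fold. In 5 cases the counts were the same in every embryo. The counts of such a member and of its coding row cannot be told apart in these files.

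The classes differed in this. Of the 40 noncoding transcripts of coding genes, 33 stayed within 1.5-fold of an NM_ row, and in all 33 it was a row of the same gene. Their median ratio to the most counted NM_ row of the gene was 100%. The most abundant of them was the noncoding row of Atp2a2, the calcium pump of the endoplasmic reticulum, at 334 to 1212 CPM (median 746). It held between 100% and 101% of the Atp2a2 coding row in every embryo. The row of Zfp57, which encodes a zinc finger protein that maintains imprints, ranged from 294 to 1062 CPM (median 578) and held 87.0% to 101% of a coding row of the gene. The rows of Psmd2, Rnf44, Gorasp2 and Ngrn had the same counts as an NM_ row of their gene throughout.

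A few noncoding rows of coding genes did not follow a coding row. For Taf1d, whose gene holds 8 annotated snoRNAs, the noncoding row had 80.0% to 222% of the counts of the most counted NM_ row (median 164%). For Tardbp it had 3.83% to 68.8% (median 24.7%). The row of Nkx6-2, a homeobox gene of the nervous system, ranged from 4.099 to 43.6 CPM, whereas the NM_ row of that gene was at 0 in 17 embryos. The mm9 annotation puts exons of Inpp5a on the other strand across 245 bases of Nkx6-2, and the libraries do not record strand. These 3 genes were chosen after their values were seen.

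Among the 22 members without a name, 15 stayed within 1.5-fold of an NM_ row. NR_024029 and NR_024030, at a mean of 459 and 458 CPM, were the most abundant of them and held 98.8% to 100% of the counts of the Acin1 coding row. NR_027640 followed Ralgps2 (100% to 102%), NR_030772 followed Zfp821 (100% to 102%) and NR_024025 followed Mtmr2 (100% to 102%). A like count is not a name, and these rows keep their identifiers here.

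**Figure D2:**
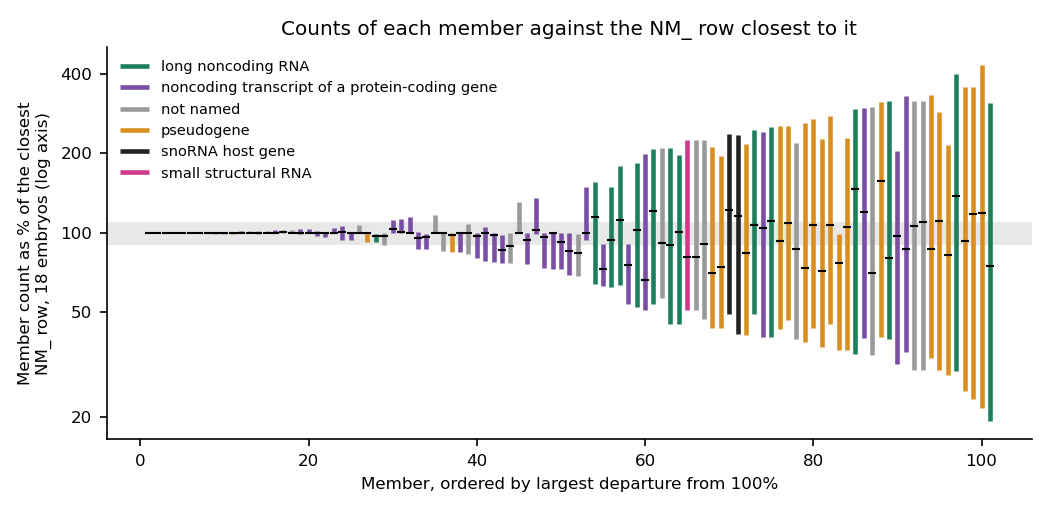
For each of the 101 members, the range over 18 embryos of its count as a percentage of the NM_ row closest to it (vertical lines, log axis, coloured by class, with the median as a dash). The grey band marks 90% to 110%, which holds 28 members. Lines are short for 53 members and long for the others, among them 13 of the 14 lncRNAs.

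The only lncRNA that followed a coding row was Gm44505, the most abundant member by CPM. RefSeq lists the synonym Zfp91-Cntf for it. Gm44505 ranged from 419 to 1489 CPM (median 887) and held 91.9% to 98.7% of the counts of Zfp91, which encodes a zinc finger ubiquitin ligase. For the other 13 lncRNAs the closest NM_ row varied by more than 1.5-fold in some embryo, so their counts were not those of any 1 coding row.

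AU015836, on chrX:91213998-91220809 (mm9, + strand), ranged from 336 to 1954 CPM, with a median of 820. RefSeq types it as a lncRNA, whereas the GENCODE vM1 annotation of mm9 types the gene as protein coding. Per length it was the highest of the members that were scaled, at 264 CPM per kb of its 3335 exon bases.

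C86187, listed in RefSeq with the synonym Sirena1, is an abundant lncRNA of the mouse oocyte. Its values ran from 296 CPM in embryo 3-1 to 1387 CPM in embryo 7-1, with a median of 704 CPM in WT and 918 CPM in Parg(110). The spread was modest for a single-embryo value, with a coefficient of variation (CV, the SD over the mean) of 33.0%.

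Malat1, a nuclear lncRNA that gathers at speckles of splicing factors, lies on chr19:5795690-5802671 (mm9, - strand) and covers 6982 bases. Its mean was 375 CPM, or 53.8 CPM per kb. The annotation places exons of Gm20417 on the opposite strand over 425 of these bases, and the reads of the 2 genes cannot be told apart there.

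The promoters of the lncRNA and snoRNA host members could be read for 13 of 16 genes from the RefSeq promoter table (GRCm38.p6, 250 bases before to 50 bases after the start). Their median number of CG dinucleotides was 23, against 7 over all 32851 promoters of the table. The letters TATAAA began between 40 and 20 bases before the start in 15.4% of them (C86187 and Arhgap20os) and in 1.99% of all promoters, searched on the strand of the gene. The windows of C86187 and Malat1 are shown because one holds TATAAA there and the other does not, and both genes were high in every embryo. C86187 is at chr7:46975862-46976161 (- strand) and Malat1 at chr19:5802623-5802922 (- strand), with CG dinucleotides and TATAAA in capitals.

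C86187: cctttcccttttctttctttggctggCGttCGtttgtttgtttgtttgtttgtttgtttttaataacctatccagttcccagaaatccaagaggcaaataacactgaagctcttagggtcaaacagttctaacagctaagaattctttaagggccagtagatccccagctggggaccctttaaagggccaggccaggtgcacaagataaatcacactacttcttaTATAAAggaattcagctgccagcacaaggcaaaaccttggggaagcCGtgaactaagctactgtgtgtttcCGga

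Malat1: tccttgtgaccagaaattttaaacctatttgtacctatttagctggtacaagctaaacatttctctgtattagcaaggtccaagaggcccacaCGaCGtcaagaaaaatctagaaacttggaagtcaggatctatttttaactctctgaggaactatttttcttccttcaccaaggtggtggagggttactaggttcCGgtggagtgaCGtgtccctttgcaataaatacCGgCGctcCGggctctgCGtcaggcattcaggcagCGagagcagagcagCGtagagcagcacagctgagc

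The C86187 window holds 4 CG dinucleotides and TATAAA from base -25, and the Malat1 window holds 10 and no TATAAA in that stretch. At the other end, Tug1 had 37 CG dinucleotides. A match of letters is a description of the window and not a measured binding site.

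Tug1, a broadly expressed lncRNA, was among the least counted members, at 1.17 to 24.7 CPM (median 7.16) and 1.21 CPM per kb. The snoRNA host gene Snhg1, with 8 annotated snoRNAs inside its gene, ranged from 8.43 to 134 CPM (median 68.0). Snhg3, with Snora73a and Snora73b inside its gene, ranged from 2.64 to 31.1 CPM (median 12.9), and exons of Gm17300 lie on the other strand over 705 of its 986 exon bases.

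Snora47 was the small structural RNA among the members with a name. Box H/ACA snoRNAs of this kind fold into a pair of hairpins joined by the H box and end with ACA a few bases before the 3′ end. The gene covers 138 bases at chr13:96100555-96100692 (mm9, + strand), inside an intron of Zbed3 and on the same strand. It is shown with letters that match the patterns of both boxes in capitals.

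Snora47: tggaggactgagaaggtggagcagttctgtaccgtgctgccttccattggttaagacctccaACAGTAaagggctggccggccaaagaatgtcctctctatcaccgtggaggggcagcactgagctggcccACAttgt

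The match to the H box pattern (ANANNA, where N is any base) nearest the middle began at base 63. The last ACA is followed by 4 bases. Both are matches of letters, and the fold was not examined. Snora47 ranged from 7.04 to 31.2 CPM in WT (median 14.4) and from 6.37 to 71.3 CPM in Parg(110) (median 10.1). Embryo 7-1 gave the highest value of Snora47 and also the highest of Zbed3, at 2718 CPM against a median of 835. Whether the counts come from the mature snoRNA or from unspliced Zbed3 RNA was not tested. NR_035461, which has no name here, had the counts of Snora47 in all but 2 embryos, 1-2 and 6-2, where it had 1 count fewer. Without embryo 7-1 the CV of Snora47 went from 90.1% to 48.6%.

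Of the 22 pseudogenes, the 18 with a position on mm9 were aligned with the mm9 coding transcripts. Gm10052, on chr9:123598348-123599310 (- strand), matched Hnrnpa1 on chromosome 15 at 100% of 963 bases, and no read from inside that stretch could separate them. Gm10052 held 92.4% to 100% and its relative Gm5643, on chromosome X, 98.7% to 100% of the counts of the closest Hnrnpa1 coding row. Against the most counted Hnrnpa1 row the ranges were 52.0% to 99.2% and 52.7% to 99.2%. Hnrnpa1 encodes an RNA-binding protein that coats messenger RNA precursors. Gm15772, on chr5:3236389-3236907 (+ strand), matched Rpl26, a ribosomal protein gene on chromosome 11, at 99.2% with 4 mismatches, and the 2 rows had the same count in all 18 embryos. According to the methods of the study, reads that mapped to several places were left out, yet reads of these copies appear on both rows.

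The share held of the most counted row of the coding gene did not follow the order of identity. Gm6793, 98.2% identical to Hnrnpa3, held 84.6% to 100% of its counts, whereas Gm12669, 99.1% identical to Glrx3, held 35.9% to 98.6%. Ubb-ps, at 98.6% identity, held 2.90% to 25.9% of the counts of Ubb, a ubiquitin gene, and Gm13034 0.637% to 6.76% of those of Smarca5, a chromatin remodelling ATPase. Gm13498, 88.7% identical to the chaperone gene Hsp90ab1, ranged from 9.76 to 590 CPM (median 135), which was 0.239% to 40.2% of Hsp90ab1. Gm5434 exceeded its closest coding gene Ube2f in 15 of 18 embryos. The 60-base windows with most differences are shown for Gm15772 (chr5:3236819-3236878) and Gm13498 (chr2:50766433-50766492, + strand) to set a pair with equal counts beside one with unequal counts, with differing bases in capitals.

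Gm15772: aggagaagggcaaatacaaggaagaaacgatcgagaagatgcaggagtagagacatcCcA

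Rpl26: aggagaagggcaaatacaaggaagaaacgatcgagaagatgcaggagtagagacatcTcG

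Gm13498: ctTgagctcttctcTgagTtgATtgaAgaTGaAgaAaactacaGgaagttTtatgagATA

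Hsp90ab1: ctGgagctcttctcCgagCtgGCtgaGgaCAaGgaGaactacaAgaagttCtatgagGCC

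The Gm15772 window differs from Rpl26 at 2 bases and the Gm13498 window from Hsp90ab1 at 15. Per length, Gm15772 was at 188 CPM per kb, Snora47 at 121, Gm11517 at 104, Gm13498 at 75.01 and Gm4971 at 53.8, and with AU015836 these were the 6 highest members that were scaled. Noncoding transcripts of coding genes were not scaled, since the length found was that of all exons of the gene. Members for which no mm9 gene was found, among them Gm44505 and C86187, had no length and were not scaled either. The counts of Gm15772 are also those of Rpl26.

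The median CV of the members was higher than that of coding rows under the same filter, but abundance was not fully matched. The median CV over 18 embryos was 64.3% for the 101 members and 54.2% for the 4811 merged NM_ rows. The difference was 10.1 percentage points, with a jackknife SE over the 6 fathers of 2.44. Members were also less abundant, with a median of 40.9 CPM against 66.4 CPM. From 10 to 100 CPM the median CV was 70.1% for 74 members and 61.9% for 3014 NM_ rows, whereas above 100 CPM it was 41.8% for 24 members and 40.4% for 1768 NM_ rows. Below 10 CPM there were only 3 members. Within the ranges members were again less abundant. From 10 to 100 CPM their median was 30.9 against 42.0 CPM, and above 100 CPM it was 176 against 216 CPM. Without the noncoding transcripts of coding genes the difference over the remaining members was 6.01 percentage points. That class had a median CV of 72.8%, and 33 of its 40 rows stayed within 1.5-fold of a coding row.

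Both genotypes showed the higher median CV of members. The median member CV was 54.9% in WT and 64.2% in Parg(110), against 48.2% and 54.7% for NM_ rows. The CV was larger in Parg(110) for 61 of the 101 members (60.4%), and for 62.8% of the NM_ rows. Of the sum of squares of a member's log2 CPM, 5.63% on average lay between genotypes, 23.0% between fathers of a genotype and 71.4% between embryos of a father. These levels hold 5.88%, 23.5% and 70.6% of the degrees of freedom, and for NM_ rows the shares were 6.61%, 24.4% and 69.0%.

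**Figure D3:**
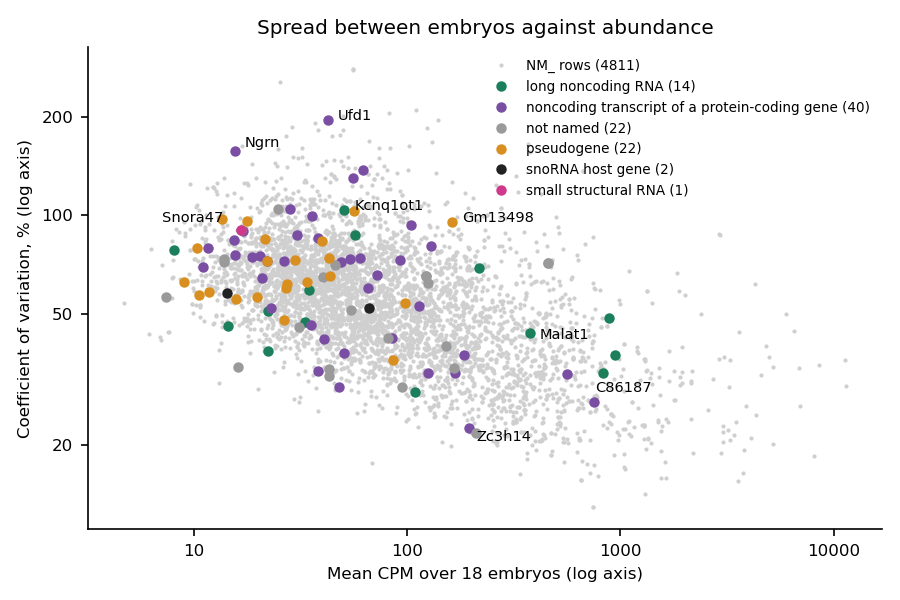
CV over 18 embryos against mean CPM for the members (coloured by class) and for 4811 NM_ rows (grey), both axes on a log scale. The CV falls as CPM rises in both sets, and Ufd1 and Ngrn lie at the top of the members.

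The steadiest members were NR_027640 (CV 21.7%, 123 to 311 CPM), Zc3h14 (22.4%, 121 to 300 CPM), Atp2a2 (26.9%), the lncRNA D6Ertd474e (28.9%, 56.3 to 176 CPM) and NR_027375 (29.9%). Zc3h14 encodes a protein that binds poly(A) tails. The counting error of these rows was small, at a Poisson CV of 1.41% to 3.97%. The Zc3h14 row held 86.9% to 98.6% of the counts of a coding row of its gene, and NR_027375 held 100% to 107% of those of Ythdf3. Of these steadiest members only D6Ertd474e did not stay within 1.5-fold of an NM_ row. The low spread of the others is thus also that of a coding row.

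The most variable members rested on 1 or a few embryos. The row of Ufd1, a cofactor of protein degradation, was at 370 CPM in embryo 1-2 and at 1.25 to 48.4 CPM in the other 17. Its CV was 195% with and 58.7% without that embryo. Ngrn was at 98.4 CPM in embryo 1-3 and 51.6 CPM in embryo 8-2, against a median of 6.89 CPM, and its CV was 157%. Both Ufd1 and Ngrn rows followed the coding row of their gene. The Lrrc28 rows NR_028143 and NR_028144 had CVs of 138% and 130%, and NR_033208 had one of 105%.

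The rule's threshold divided like transcripts. Arrdc1, NR_033208, Gm13034, Ubb-ps and Rnf126 were just inside, with 10 counts in their lowest embryo. The antisense transcript Rab10os, Slx1b, 3 rows of Rabggtb and Gm3219 were just outside, with 9. The lowest count fell in embryo 2-3 for Arrdc1, in embryos 2-3 and 8-1 alike for Ubb-ps and in embryo 7-3 for NR_033208, Gm13034 and Rnf126, and embryo 2-3 had the lowest total of all libraries.

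The comparison of the genotypes asked whether noncoding RNAs differed in embryos of Parg(110)-/- fathers. No member passed an adjusted p of 0.1 in edgeR's quasi-likelihood test, which was fitted to 15333 transcripts and called 0% of them. At an unadjusted p under 0.05 there were 6 members, or 5.94% of them, against 889 of all transcripts (5.8%). Rows with nearly the same counts were kept apart, and the Lrrc28 rows NR_028143 and NR_028144 both count among the 6. DESeq2 called 0 members and 38 of all transcripts (0.248%). The median log2 difference was 0.10 over the members, with 61 of 101 above 0 (60.4%). It was -0.02 over all transcripts tested, with 49.0% above 0, and 0.02 over NM_ rows at the same minimum, with 52.0% above 0. The members' share of nominal p-values was thus near the background.

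Malat1 had the smallest p of the members. In WT it ranged from 328 to 777 CPM (median 466) and in Parg(110) from 150 to 366 CPM (median 285). The lowest WT embryos, 2-1 and 2-2, were below the highest Parg(110) embryos, 6-1 and 7-2, and otherwise the genotypes were apart. The father means were 465, 376 and 621 CPM for fathers 1, 2 and 3 and 278, 280 and 232 CPM for fathers 6, 7 and 8. The log2 difference was -0.88 ± 0.23 (SE, unadjusted p = 0.000828, edgeR adjusted p = 0.334), and without any 1 father it lay between -1.02 and -0.70. The DESeq2 adjusted p was 0.106. With counts summed per father the edgeR adjusted p was 0.9997.

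Father means that did not overlap between the genotypes were counted over all transcripts as well. They were all lower in Parg(110) for 4 members (Malat1, 5830417I10Rik, Gm20605 and Rnf126), where the background was 900 of 15333 transcripts (5.87%). They were all higher for 3 members (Taf1d, NR_024025 and Lrrc57), where the background was 4.27%. No member had all 9 embryos of a genotype apart from the other 9, and of all transcripts 0% were so higher and 0.00652% so lower in Parg(110).

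The transcribed pseudogene 5830417I10Rik ranged from 22.7 to 122 CPM in WT (median 55.4) and from 6.34 to 44.6 CPM in Parg(110) (median 22.8). Embryo 3-3 was the only WT embryo within the range of Parg(110). The log2 difference was -1.31 ± 0.41 (SE, edgeR adjusted p = 0.342). A stretch of 20.4% of its 11105 bases is 98.1% identical to Gon4l, a coding gene nearby on chromosome 3, whose own log2 difference was 0.68 ± 0.26 (SE, edgeR adjusted p = 0.644) and so had the other sign.

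The Lrrc28 rows, of a gene for a leucine-rich repeat protein, gave the smallest p among members that were higher in Parg(110). NR_028143 ranged from 10.6 to 78.7 CPM in WT (median 26.2) and from 12.9 to 379 CPM in Parg(110) (median 51.3), with overlapping ranges. The log2 difference was 1.36 ± 0.57 (SE, edgeR adjusted p = 0.763), and 0.71 without father 7. That father, whose embryo 7-2 held the 379 CPM, had a mean of 152 CPM, against 78.9 and 37.2 CPM for fathers 6 and 8. The most counted coding row of Lrrc28 had a log2 difference of 1.33 ± 0.57 (SE, edgeR adjusted p = 0.775). NR_028143 held 63.8% to 139% of the counts of that row (median 93.8%), so the coding row is not independent of it.

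Other members with small p-values were also not called. Lrrc57 was at 4.21 to 43.6 CPM in WT and 2.61 to 124 CPM in Parg(110), a log2 difference of 1.24 ± 0.57 (SE, edgeR adjusted p = 0.839). For Ufd1 the log2 difference of -1.51 ± 0.69 (SE, edgeR adjusted p = 0.839) became -0.13 without father 1, whose embryo 1-2 held the highest value. Samd7 had a log2 difference of 0.70 ± 0.37 (SE), Arrdc1 one of -1.05 ± 0.55 (SE), and neither had an unadjusted p under 0.05. Snhg1 and Snhg3 had log2 differences of -0.39 ± 0.43 and -0.41 ± 0.56 (SE), and Tug1 one of -0.67 ± 0.69 (SE).

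**Figure D4:**
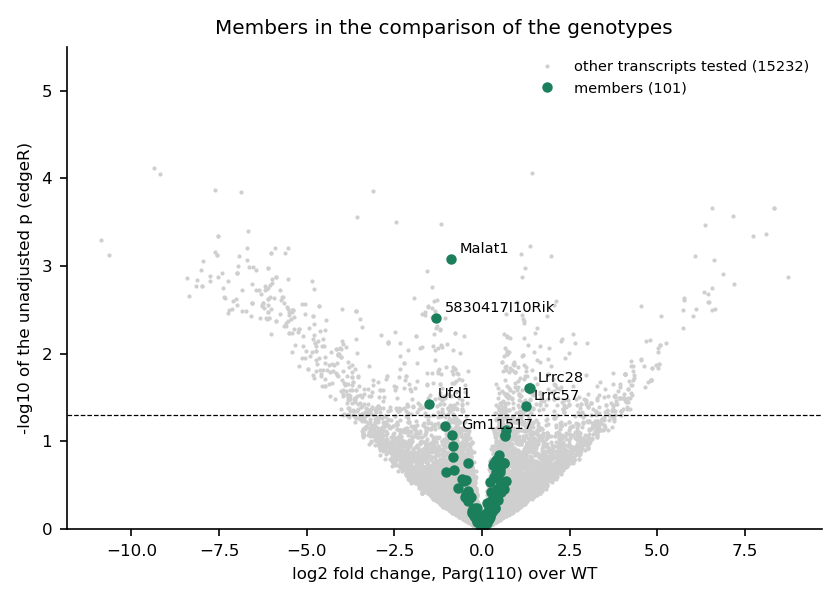
Log2 fold change of Parg(110) over WT against the -log10 of edgeR's unadjusted value for the 101 members (green) and the other 15232 transcripts tested (grey), with a dashed line at the nominal level of 0.05. Malat1 and 5830417I10Rik are the highest of the members, and no point passes an adjusted p of 0.1.

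Genes for proteins that work with noncoding RNAs in general, and not only with the members, were tested in the same fit. No paraspeckle RNA, 7SK RNA, RNase P or MRP RNA or microRNA was among the members with a name. None was called in the lists of snoRNP core proteins (9 tested), nonsense-mediated decay (10), paraspeckle proteins (7), 7SK snRNP and P-TEFb (7), RNase P and MRP proteins (9) or microRNA biogenesis (7). At an unadjusted p under 0.05 there was 1 paraspeckle gene and 1 of RNase P and MRP. Pspc1, a paraspeckle protein, averaged 177 ± 91.2 CPM in WT and 68.5 ± 42.6 CPM in Parg(110) (SD, n = 9 each), and its log2 difference was -1.36 ± 0.40 (SE, edgeR adjusted p = 0.334). Pop1, a subunit of RNase P, averaged 13.4 ± 14.1 and 2.81 ± 2.06 CPM (SD, n = 9 each), with an edgeR adjusted p of 0.599. In the other lists the smallest p-values belonged to Larp7, which binds 7SK RNA (log2 -0.87 ± 0.44, SE), Upf1, the helicase of nonsense-mediated decay (-0.68 ± 0.35), Dkc1, the pseudouridine synthase of H/ACA snoRNPs (-0.33 ± 0.22), and Dicer1, which cuts microRNA precursors (0.23 ± 0.18).

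Differences between the fathers of 1 genotype were tested across all 6 fathers with 3 embryos each. No member was called by edgeR at an adjusted p of 0.1, as was true of 0% of all transcripts. At an unadjusted p under 0.05 there were 5 members (4.95%), against 6.76% of all transcripts. DESeq2's likelihood ratio test called 1 of the 101 members, Kcnq1ot1, and 140 of 15333 transcripts, which is a like share.

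Kcnq1ot1 is an imprinted lncRNA that is transcribed from the paternal allele and silences neighbouring genes in cis. Its values were 9.86, 17.9 and 5.33 CPM in the embryos of father 1, 19.9, 7.62 and 22.8 CPM in those of father 2, and 107, 38.1 and 136 CPM in those of father 3. All embryos of father 3 were thus above all embryos of the other WT fathers. In Parg(110) they were 27.8, 174 and 135 CPM for father 6, 20.6, 32.8 and 83.1 CPM for father 7, and 18.5, 54.4 and 2.92 CPM for father 8, which overlapped. Between fathers the edgeR adjusted p was 0.700 and the DESeq2 adjusted p was 0.0593. Between genotypes the log2 difference was 0.62 ± 0.66 (SE, edgeR adjusted p = 0.971), and it went from -0.17 to 2.13 depending on the father left out.

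Senp2, a protease for the modifier SUMO, showed a like order in WT. Its noncoding row was at 92.4 to 125 CPM in the embryos of father 3 and at 14.6 to 60.7 CPM in those of fathers 1 and 2 (edgeR adjusted p = 0.700). Its counts were 100% to 100.3% of those of the Senp2 coding row. Syce2, a protein of the synaptonemal complex, ran the other way, with means of 233, 168 and 89.3 CPM for fathers 1, 2 and 3 (edgeR adjusted p = 0.700). Iqca1l had a mean of 14.5 CPM for father 7, against 60.7 and 127 CPM for fathers 6 and 8 (edgeR adjusted p = 0.700).

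**Figure D5:**
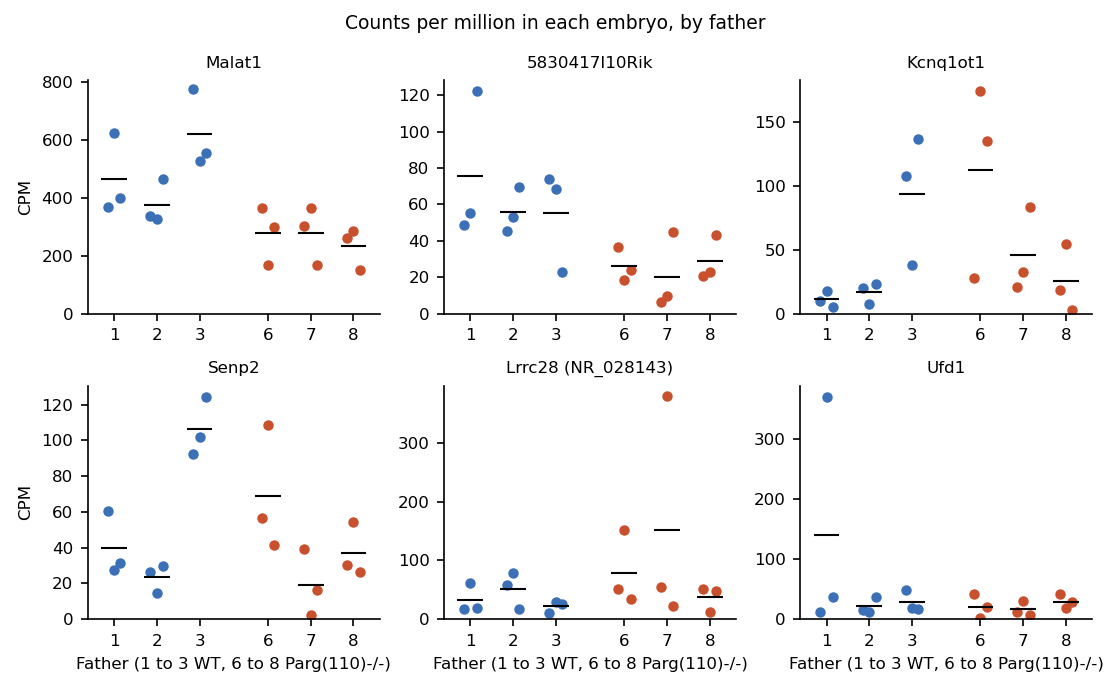
CPM of 6 members in each embryo (points), grouped by father, with the mean of the 3 embryos as a line and WT fathers in blue, Parg(110)-/- fathers in red. Malat1 and 5830417I10Rik have lower father means in Parg(110), Kcnq1ot1 and Senp2 are highest in WT for father 3, and single embryos hold the top values of Lrrc28 and Ufd1.

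Single Parg(110) embryos were also set against the 9 WT embryos, since each embryo comes from a different sperm. The spread in such a fit comes from the WT embryos alone, and the single embryo is assumed to vary like them. Across the 9 fits 1 member was called, the Lrrc28 row NR_028143 in embryo 7-2, where the background was 29 of 18416 transcripts (0.157%). Its value of 379 CPM compared with 10.6 to 78.7 CPM in WT, and the log2 difference was 3.46 ± 0.70 (SE, edgeR adjusted p = 0.0756). The other Lrrc28 row, NR_028144, had a log2 difference of 3.34 ± 0.71 (SE, edgeR adjusted p = 0.1002). The call was lost without WT father 3 and with a minimum of 10 counts in 3 of 18 embryos, and without WT father 2 there were 2 members called. In the other 8 embryos no member was called by edgeR. The backgrounds there were 0.027%, 0.0108% and 0.0162% for embryos 6-1, 6-2 and 6-3, 0.157% and 0.103% for 7-1 and 7-3, 0.0545% for 8-2 and 0% for 8-1 and 8-3. Malat1 was among the 3 members with the smallest p in embryos 6-2, 7-3 and 8-3, with log2 differences of -1.51, -1.55 and -1.64 that did not pass adjustment.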

How the data were processed

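The authors sequenced amplified cDNA (WT-Ovation One-Direct kit, not strand-specific) of single 2-cell embryos and, per the methods, mapped reads to mm9 with RUM, allowing 1 mismatch and leaving out reads with several matches. The deposited files hold raw counts per RefSeq transcript, 1 file per embryo, and the submitters' processing notes name DESeq 1.10.0. The counter and annotation release are not given in the sources used here. Totals and the worth of 1 count are given above. The members and gene lists were chosen with earlier results of these data known.

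Counts were fitted in edgeR 4.0.16 (TMM, quasi-likelihood test, Benjamini-Hochberg over all transcripts tested, threshold 0.1), with transcripts at 10 counts in 3 embryos for groups and in 1 for single embryos. DESeq2 1.42.0 and limma 3.58.1 served as alternatives. The edgeR comparisons, but not these alternatives, were tested on simulated counts. All simulated transcripts had the same dispersion and the outcome is not given here, so no weight is placed on it for members without a call. In the simulated comparison of genotypes the embryos of 1 father were drawn independently of each other. Embryos of 1 father are siblings, so p-values over embryos measure the spread between embryos more than between fathers. Named members were the 6 highest by CPM and by CPM per kb, the 5 highest and lowest by CV, the 4 smallest p in each direction and between fathers, snoRNAs and their hosts, known lncRNAs, called members and those at the threshold, with the top gene of each partner list. Positions came from GENCODE vM1 on mm9 and names and promoters from RefSeq tables (GRCm38.p6). Pseudogenes were aligned with blastn 2.17.0.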

Additional observations from a re-analysis of the deposited data

Results flagged for a closer look

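Among 9 embryos of a genotype, a value was set aside for a closer look when its gap to the next value was too large a part of the range (Dixon's test at the 95% level), which chance gives in about 1 of 20 groups. This held for 17 of 70 groups of 9 values, each time for the highest embryo. Nearly all groups are of the members named in the text, several of which were chosen for a high CV and some of which share counts, so their number is not to be read against that chance rate. In WT these were Ufd1 in embryo 1-2 (370 CPM, next 48.4), Ngrn in embryo 1-3 (98.4 CPM, next 33.7), Gm13498 in embryo 1-3 (387 CPM, next 191), NR_027640 in embryo 2-1 (311 CPM, next 211), Tug1 in embryo 2-2 (24.7 CPM, next 13.6) and Snora47 in embryo 2-3 (31.2 CPM, next 18.8). WT father 3 gave Gm15772 in embryo 3-1 (218 CPM, next 122), Gm4971 and Lrrc57 in embryo 3-2 (164 CPM, next 72.0, and 43.6 CPM, next 19.8) and Zc3h14 in embryo 3-3 (300.03 CPM, next 197).

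In Parg(110), embryo 7-1 stood apart for Snora47 (71.3 CPM, next 21.0) and Gm4971 (230.1 CPM, next 96.8). Embryo 7-2 did so for the Lrrc28 rows NR_028143 (379 CPM, next 151) and NR_028144 (317 CPM, next 149). Embryo 8-1 did so for NR_033208 (115 CPM, next 32.7) and Tug1 (21.1 CPM, next 10.01), and embryo 8-2 for Ngrn (51.6 CPM, next 13.2). Snora47, Gm4971, Ngrn and Tug1 had such an embryo in both genotypes. The share of counts on the members had none.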

How the results depend on the processing

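Of 85 alternative values for the main results, 65 stayed like the main value. A number of calls was taken as like when it was equal or within 1.5-fold. For the share of counts the margin was the SD over embryos, and for the difference in CV it was the jackknife SE. For the ratio of noncoding to coding rows it was the SD over the members compared. That SD includes Nkx6-2 at 6250%, so the ratio could hardly have come out unlike and its outcome carries no weight. The like values include numbers of members called that were 0 in both fits. Between genotypes DESeq2 called 38 transcripts and the fit without father 6 called 5, with 0 members in each. The embryo number did not pair the samples, since the median correlation of residuals was 0.0025 for embryos with the same number and -0.0017 for others, and as a replicate block it left 0 members and 0 transcripts called. Between fathers, no filter gave 702 transcripts and 3 members, DESeq2's likelihood ratio test 140 and 1, and the fit without father 3 gave 2 transcripts.

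For single embryos the count of transcripts called was 39 at an adjusted p of 0.05 and 50 with 10 counts in 3 of 18 embryos, and 41 to 81 without a WT father (64 without father 1), against 97. Members called were 0 under the first 2 of these, 2 with like rows merged, and 0 to 2 without a WT father, the 0 coming without father 3. The members' median share of counts, 1.07%, became 0.698% without noncoding transcripts of coding genes and 0.613% without those within 10% of an NM_ row, an alternative chosen after seeing the data. The difference in median CV was 6.87 points at 20 counts and 6.01 without noncoding transcripts of coding genes. Low totals limit the rarest members, where 10 counts were at the minimum. The causes of these shifts were not tested.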
